A study of Mus musculus with 12 samples.

Results

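The kallikreins and serpins of mouse thymic epithelium were taken as every row of the count table whose symbol begins with Klk and a digit, or with Serpin, a clade letter from a to i and a digit. The rule took 94 of 31332 rows, 27 kallikreins and 67 serpins. Of these, 61 had enough reads to be tested (22 kallikreins and 39 serpins), among 17268 tested genes in all. The other 33 members, 6 of them pseudogene rows, had 4 to 87 reads each over all 12 libraries and at most 2.45 CPM, the count scaled to the library total, in any of them.

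RNA was sequenced from cortical (cTEC) and medullary (mTEC) thymic epithelial cells, sorted from C57BL6/J mice 2 months of age. All mice carried floxed alleles of the liver X receptors (LXR) alpha and beta, the products of Nr1h3 and Nr1h2. Controls had these alleles alone, and Cre mice also had FoxN1-Cre, a recombinase under a promoter of thymic epithelium. The libraries are numbered, with 1 to 3 for control mTEC, 7 to 9 for control cTEC, 4 to 6 for Cre mTEC and 10 to 12 for Cre cTEC. The labels do not say whether libraries came from separate mice, so all p-values measure the spread between these libraries only. In sorted bulk RNA, fewer cells of a kind and less RNA per cell cannot be told apart.

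Kallikreins are secreted serine proteases encoded side by side in a single gene cluster. The glandular group, Klk1 and the mouse Klk1b genes, includes the kinin-releasing tissue kallikrein and proteins that bind nerve and epidermal growth factors in the salivary gland. The other group, Klk4 to Klk15, is best known from stratified epithelia, where some members cleave the junctions between dying keratinocytes during shedding of the skin. Serpins are mostly inhibitors that trap a protease by a change of shape. Clade B serpins stay largely inside cells, and most other clades are secreted. mTEC display proteins of other tissues to developing T cells, and some mTEC mature into cells that resemble keratinised skin.

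Totals ran from 4804697 to 11159013 counts per library, so that 1 count corresponded to 0.0898 to 0.194 CPM. Nr1h2 lay at 158 to 192 CPM in control cTEC and 102 to 124 in Cre cTEC (log2 fold change -0.58, SE 0.13, edgeR adjusted p = 0.00566), and at 110 to 132 and 70.5 to 96.1 CPM in mTEC (-0.63, SE 0.13, adjusted p = 0.0158). Nr1h3 was at 5.84 to 10.7 CPM throughout and passed in neither cell type. These are counts per gene, which also take reads from exons outside the floxed part. The sum of 8 cTEC markers was 3865 to 12120 CPM in cTEC and 546 to 851 CPM in mTEC. The sum of 8 mTEC markers was 7721 to 8055 CPM in control mTEC and 6570 to 7681 in Cre mTEC, 2909 to 3100 in control cTEC and 1850 to 2079 in Cre cTEC. Library 11 stood apart in the Cre cTEC group, above all in 3 kallikreins, and the results for these 3 genes that rest on it are also given without it.

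As a sum, kallikreins were a medullary feature. Their summed level was 188, 199 and 212 CPM in control mTEC and 14.9, 12.4 and 19.8 CPM in control cTEC. In Cre mTEC the sum was 113, 88.7 and 137 CPM, below every control mTEC library. In Cre cTEC it was 6.15 and 13.6 CPM in libraries 10 and 12 and 258 CPM in library 11. Serpins were far more abundant, and their sum ranged between 1655 and 2555 CPM over all 12 libraries. Between 20 and 24 of 27 kallikrein rows reached 1 CPM in each mTEC library, 4 or 5 in each control cTEC library, and 1, 10 and 3 in libraries 10, 11 and 12.

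**Figure D1:**
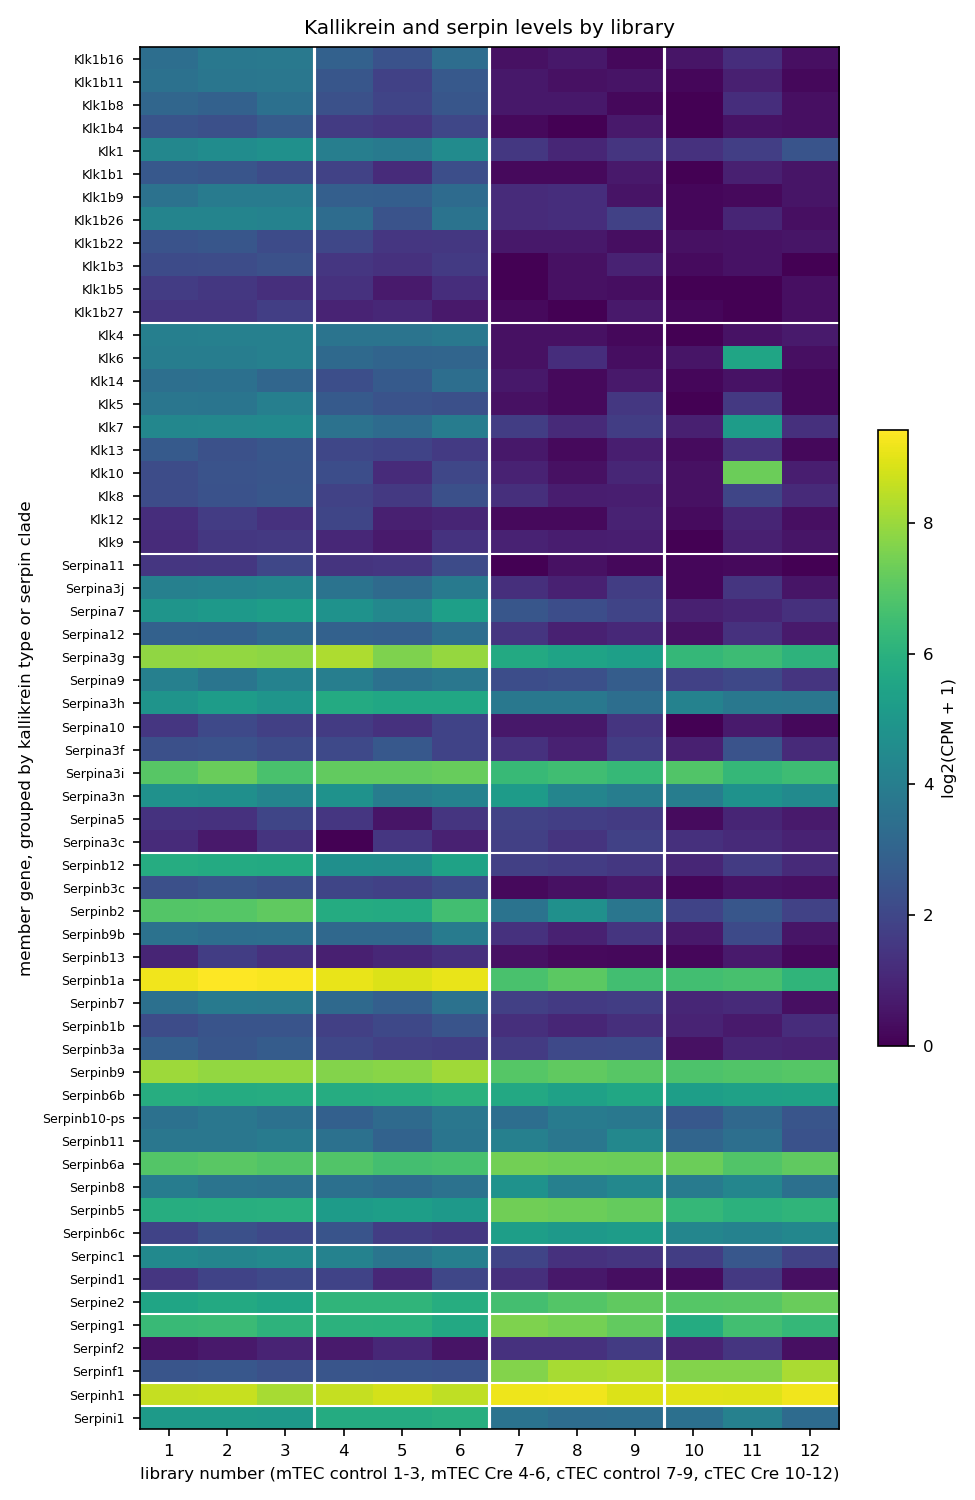
Level of tested members (rows, grouped by kallikrein type or serpin clade) in each of the 12 libraries (columns), as log2(CPM + 1). Most kallikrein rows are brighter in the 6 mTEC libraries than in cTEC, and the main exceptions are Klk10, Klk6 and Klk7 in library 11.

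Per kilobase of the longest transcript, the highest levels in control mTEC were those of Serpinb1a (335 CPM per kilobase), Serpinh1 (155.7) and Serpina3g (128). Serpinb1a inhibits neutrophil elastase, Serpinh1 is a collagen chaperone of the endoplasmic reticulum, and Serpina3g inhibits cathepsins. On the same scale control cTEC were led by Serpinh1 (241.5), Serpinf1 (145) and Serping1 (95.6). The kallikreins were lower, led in control mTEC by Klk1 at 23.8 CPM per kilobase.

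Comparing mTEC with cTEC in controls places each member in medulla or cortex. Of 61 members, 45 were higher in mTEC, 9 were higher in cTEC and 7 did not pass, where 29.3% of all tested genes were higher and 30% lower. The median log2 difference was 2.43 over the members and -0.05 over all genes. Of 22 tested kallikreins 20 were higher in mTEC and none lower (lowest fold 1.15, median 3.55). All 22 had every control mTEC library above every control cTEC library, which held for 33.7% of all genes. The low-count filter favours this result. A row nearly absent from cTEC, such as Klk4 (mean 0.275 CPM in control cTEC), is tested only if mTEC hold enough reads. Counts of kallikreins higher in mTEC, here and in Cre libraries, are thus partly set by the filter. Of 39 tested serpins 25 were higher in mTEC and 9 lower, with a median of 1.37. Every adjusted p in these comparisons is from edgeR's quasi-likelihood test with Benjamini-Hochberg adjustment over all tested genes.

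All 12 tested glandular kallikreins were higher in mTEC, with a median log2 difference of 3.72. Klk1, the tissue kallikrein that releases kinins, was at 19.8, 22.6 and 25.7 CPM in control mTEC and at 1.90, 1.01 and 1.71 CPM in control cTEC. The groups were far apart (log2 3.86, SE 0.32, adjusted p = 4.17e-09). Klk1b16 had 9.52, 12.7 and 13.1 CPM against 0.346, 0.504 and 0.143 CPM, a log2 difference of 5.12 (SE 0.48). Klk1b11 (4.69, SE 0.43) and Klk1b8 (4.38, SE 0.59) followed. Reads of the Klk1b rows are uncertain, since these genes are near copies. When the 15 Klk1 and Klk1b rows were summed, the sum was 107 ± 7.64 CPM (SD, n = 3) in control mTEC and 7.92 ± 1.92 CPM in control cTEC, a log2 difference of 3.74 (SE 0.25, edgeR adjusted p = 2.73e-10).

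Of 10 tested epithelial kallikreins 8 were higher in mTEC. Klk4, which degrades enamel matrix proteins in the growing tooth, was at 15.5, 16.1 and 16.3 CPM in control mTEC and at 0.346, 0.336 and 0.143 CPM in control cTEC. With a log2 difference of 5.81 (SE 0.40, adjusted p = 3.15e-10) it had the largest medullary excess among the members. Klk5 and Klk7, the trypsin-like and chymotrypsin-like enzymes of skin shedding, differed by 3.92 (SE 0.58) and 3.39 (SE 0.87). Klk14, another trypsin-like skin enzyme, differed by 4.38 (SE 0.46). Klk6, a protease first described in brain, differed by 4.53 (SE 1.26, adjusted p = 0.00461). Klk10 did not pass (2.45, SE 1.91, adjusted p = 0.28), although its control mTEC libraries at 3.59, 4.38 and 4.57 CPM lay above the control cTEC libraries at 0.864, 0.336 and 0.999 CPM. All groups share 1 estimate of the spread in this fit, and Klk10 varied most in the Cre cTEC group. With limma voom and quality weights, Klk10 passed (2.46, adjusted p = 0.00626).

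Of 13 tested clade A serpins 10 were higher in mTEC. Serpina3g was at 230, 238 and 224 CPM in control mTEC and 51.5, 43.6 and 38.8 CPM in control cTEC (log2 2.37, SE 0.15). Serpina7, the thyroxine-binding globulin of plasma, was at 29.3, 33.0 and 36.6 against 4.67, 3.70 and 2.86 CPM (log2 3.15, SE 0.24). Serpina7 is best known from liver, and its levels did not overlap between the cell types. Serpinc1 (antithrombin) and Serpind1 (heparin cofactor II), both plasma inhibitors of thrombin, were also higher in mTEC, by 3.34 (SE 0.27) and 1.85 (SE 0.66). The Serpind1 call was lost without library 2, 3, 8 or 9 (edgeR adjusted p up to 0.111). Serpinc1 shares 58.8% of its 50-base windows with another annotated gene, so its count is uncertain. Serpini1 (neuroserpin) was higher in mTEC by 1.76 (SE 0.17).

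Clade B was mixed, with 11 members higher in mTEC and 4 in cTEC among 17 tested. Serpinb12 was at 56.0, 53.7 and 51.8 CPM in control mTEC and 2.42, 2.19 and 1.86 CPM in control cTEC (log2 4.64, SE 0.24, adjusted p = 7.67e-12). Serpinb1a was at 599, 682 and 646.5 CPM against 105, 131 and 93.5 CPM (2.55, SE 0.15). Serpinb2, an inhibitor of plasminogen activators, was at 117, 122 and 136 against 10.9, 25.4 and 12.0 CPM (2.96, SE 0.25). Serpinb9, the inhibitor of granzyme B, was higher by 0.94 (SE 0.11). Serpinb5 (maspin), a clade member that does not inhibit proteases, went the other way, at 57.4, 58.3 and 61.03 CPM in control mTEC and 164, 156 and 147 CPM in control cTEC (-1.40, SE 0.10). Serpinb6c (-3.43, SE 0.21), Serpinb8 (-0.77, SE 0.21) and Serpinb6a (-0.42, SE 0.11) were the other clade B members higher in cTEC. Serpinb8 no longer passed without library 7 (adjusted p = 0.0727), nor Serpinb6a with no filter on low counts (adjusted p = 0.178). The summed level of 10 macrophage and dendritic cell markers was 270 to 352 CPM in control mTEC and 59.7 to 90.6 CPM in control cTEC, and of 10 thymocyte markers 145 to 191 and 180 to 300 CPM. The part of such cells in the levels of Serpinb1a, Serpinb9 and Serpina3g was not tested.

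The cortical side was led by Serpinf1, the pigment epithelium-derived factor, which lacks protease inhibition and restrains vessel growth. Serpinf1 was at 4.58, 4.92 and 4.05 CPM in control mTEC and at 205, 290 and 302 CPM in control cTEC. This log2 difference of -5.87 (SE 0.20, adjusted p = 4e-14) was the most negative of the 61 members. All 3 tested members of clades F and G were higher in cTEC, including Serping1, the inhibitor of complement C1, at 81.6, 85.6 and 66.6 against 193, 172 and 143 CPM (-1.11, SE 0.16). Serpine2 (protease nexin) and Serpinh1 were also higher in cTEC, by log2 values of -1.30 (SE 0.13) and -0.63 (SE 0.13) for mTEC minus cTEC. A sum of 7 fibroblast markers was 96.4 to 108 CPM in control mTEC and 102 to 120 in control cTEC. The single markers went both ways, with 2 passing as higher in mTEC, 3 as higher in cTEC and 2 not passing. Lum had means of 13.4 CPM in control mTEC and 53.9 in control cTEC, and Col1a1 had 37.8 and 9.58. The part of fibroblasts in the Serpinf1, Serping1 and Serpinh1 levels was not tested.

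In Cre libraries the same contrast gave 41 members higher in mTEC and 7 higher in cTEC, against 25.1% and 24.5% of all genes. All 12 glandular kallikreins were again higher in mTEC, with a median of 3.24. Serpinf1 again led the cortical side (-5.73, SE 0.21). Among the epithelial kallikreins only 4 of 10 passed as higher, and Klk10 passed as lower (-4.26, SE 1.23, adjusted p = 0.00715). This sign rested on library 11. Without it Klk10 was at 2.35 (adjusted p = 0.00198), Klk6 at 4.30 in place of -0.90 and Klk7 at 3.40 in place of -0.01, and 59 members passed, 53 higher and 6 lower.

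The genotype comparison in cTEC asks what changes in cortex where the floxed LXR genes meet Cre. Several clade B serpins, the complement inhibitor Serping1 and the hormone carrier Serpina7 fell in Cre cTEC. Of 39 tested serpins 10 fell, 1 rose and 28 did not pass, and of 22 kallikreins 1 fell and 2 rose. Over all 61 members 11 fell (18%) and 3 rose (4.92%), where 3.38% of all tested genes fell and 5.62% rose. In 15 members (24.6%) all Cre libraries lay below all controls, against 10.1% of all genes. The median log2 fold change was -0.41 over the members and -0.02 over all genes.

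Most of the serpins that fell were of clade B, of which 7 of 17 tested members fell and 16 of 17 had values below 0. Serpinb2, named above as an inhibitor of plasminogen activators, went from 10.9, 25.4 and 12.0 CPM in control cTEC to 2.68, 4.66 and 2.63 CPM in Cre cTEC. Every Cre library lay below every control (log2 -2.32, SE 0.36, adjusted p = 0.000328). Serpinb5 was at 164, 156 and 147 CPM and fell to 76.7, 64.5 and 70.6 CPM (-1.14, SE 0.10, adjusted p = 1.14e-06), the smallest adjusted p of any member here. Serpinb3a, a mouse relative of the squamous cell carcinoma antigens, went from 2.08, 3.20 and 3.28 CPM to 0.335, 0.972 and 0.877 CPM (-2.04, SE 0.43, adjusted p = 0.00396). Summed with its near copies, the Serpinb3 family fell by 1.69 (SE 0.37, adjusted p = 0.00593).

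Serpinb11 fell from 16.1, 12.4 and 19.8 CPM to 7.49, 9.91 and 4.24 CPM (-1.19, SE 0.26, adjusted p = 0.00518), without overlap. Serpinb6c, which was higher in cortex like Serpinb5, fell from 38.2, 32.6 and 35.8 CPM to 18.8, 17.1 and 19.4 CPM (-0.94, SE 0.18, adjusted p = 0.00171). The row Serpinb10-ps, listed in RefSeq as Serpinb10, fell by 1.07 (SE 0.26, adjusted p = 0.0111). Serpinb7 (megsin) was low, with control libraries at 2.42, 2.02 and 2.28 CPM and Cre libraries at 1.01, 1.17 and 0.292 CPM (-1.45, SE 0.42, adjusted p = 0.0378). The most abundant clade B members did not pass. Serpinb1a had -0.31 (SE 0.14, adjusted p = 0.222), Serpinb9 -0.15 (SE 0.12, adjusted p = 0.553) and Serpinb6a -0.24 (SE 0.11, adjusted p = 0.254).

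Outside clade B, Serping1 went from 193, 172 and 143 CPM to 54.1, 94.2 and 75.6 CPM, with no overlap (-1.19, SE 0.17, adjusted p = 0.000132). Serpina7 went from 4.67, 3.70 and 2.86 CPM to 0.782, 0.972 and 1.46 CPM (-1.80, SE 0.40, adjusted p = 0.00597). Serpina5, the inhibitor of activated protein C, was near the limit of counting, at 2.59, 2.35 and 2.14 against 0.224, 0.972 and 0.585 CPM (-2.08, SE 0.58, adjusted p = 0.0289). The cathepsin inhibitor Serpina3g rose, from 51.5, 43.6 and 38.8 CPM to 75.6, 87.6 and 67.2 CPM (0.78, SE 0.15, adjusted p = 0.00222), and was the only serpin that did. Some 16% of its 50-base windows occur in another gene, and the sum of all 14 Serpina3 rows did not pass (0.32, SE 0.13, adjusted p = 0.144). Serpinf1, the leading cortical serpin, had -0.18 (SE 0.15, adjusted p = 0.61), Serpinh1 -0.05 (SE 0.13, adjusted p = 0.924) and Serpine2 0.18 (SE 0.13, adjusted p = 0.529).

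Other marker lists moved in the same libraries. Of 8 cTEC markers 6 rose in Cre cTEC, although their sum overlapped, at 3865 to 5119 CPM in control and 4682 to 12120 CPM in Cre cTEC. The sum of 8 mTEC markers was lower, as given above. Krt14 and Krt5, keratins of basal epithelium on that list, fell by 1.15 (SE 0.13) and 0.79 (SE 0.14), while Fezf2 and Tnfrsf11a from the same list rose by 0.76 (SE 0.16) and 0.83 (SE 0.15). The fibroblast sum was 102 to 120 CPM in control cTEC and 50.5 to 101 CPM in Cre cTEC. The part of these shifts in the serpin changes was not tested.

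The calls of Serpinb2, Serpinb5, Serpinb3a, Serpinb6c, Serpinb11, Serping1 and Serpina3g in cTEC held under every alternative in which their own rows were tested. With near copies summed, the rows of Serpinb3a, Serpinb6c and Serpina3g were replaced by family sums. The Serpinb6 sum did not pass in cTEC (-0.315, SE 0.10, edgeR adjusted p = 0.0636), nor did the Serpina3 sum, as given above. Serpinb7 and Serpina5 lost theirs without library 7, 8, 9, 10 or 12 and in a fit of the 6 cTEC libraries alone (adjusted p up to 0.171 and 0.141), Serpinb10-ps without library 8, 10 or 12 (up to 0.0607), and Serpina7 without library 10 and with limma voom (up to 0.0811).

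**Figure D2:**
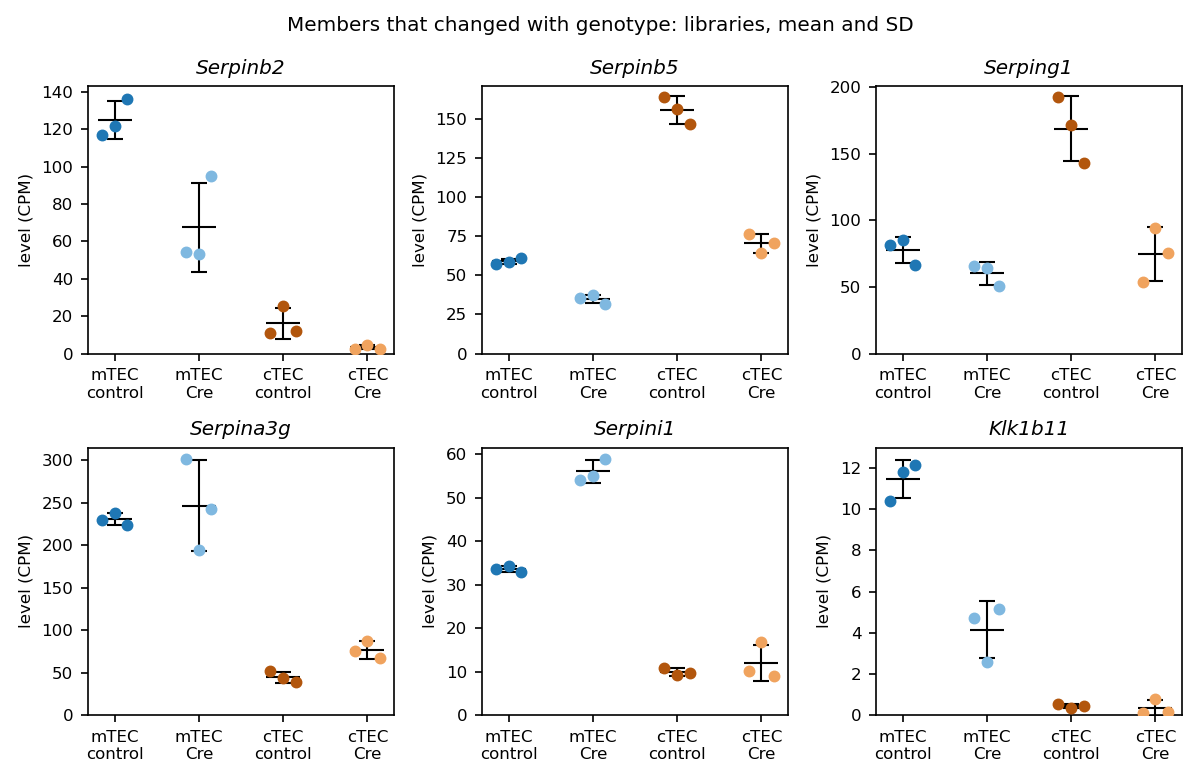
Level in CPM of 6 members that changed with genotype, with each library as a point, the mean as a long bar and the SD as whiskers (n = 3 per group). Serpinb2 and Serpinb5 were lower with Cre in both cell types, Serping1 in cTEC and Klk1b11 in mTEC, while Serpina3g was higher with Cre in cTEC and Serpini1 in mTEC.

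The 2 kallikreins that passed as higher in Cre cTEC did so through library 11. Klk10 was at 0.864, 0.336 and 0.999 CPM in control cTEC, at 0.335 and 0.731 CPM in libraries 10 and 12, and at 156 CPM in library 11. Klk6 was at 0.346, 1.35 and 0.286 CPM in controls, at 0.447 and 0.292 CPM in libraries 10 and 12, and at 45.5 CPM in library 11. Klk7 was at 2.25, 1.18 and 2.28 CPM in controls, at 0.782 and 1.46 CPM in libraries 10 and 12, and at 35.8 CPM in library 11. The levels in library 11 exceeded those of every mTEC library too, where the highest were 4.57, 16.2 and 21.2 CPM for Klk10, Klk6 and Klk7.

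Klk10 and Klk6 had the largest excess of all genes in library 11 over the other Cre cTEC libraries, and Klk7 was sixth. Their ratios, with 0.5 CPM added to both sides, were 127, 48.5 and 18.5. In library 11, 13 genes exceeded 8-fold by this measure and in libraries 10 and 12 none did. They included Cst6, an inhibitor of cysteine proteases in cornifying skin (196 CPM against 6.71 and 7.46). Cdsn, the corneodesmosin that skin kallikreins cleave, was another (28.2 against 0.447 and 0.439 CPM). An immunoglobulin gene, Ighg2b, was also among them, at 35.8 CPM against 0.447 and 0.877 CPM. Ighg2b varied in Cre mTEC too, from 1.96 to 185 CPM. Neighbouring kallikreins reached lower levels in library 11, Klk5 1.94 CPM, Klk8 2.91 CPM and Klk9 0.777 CPM. Some of the neighbours still stood above libraries 10 and 12. Klk11 was at 2.14 CPM against 0.447 and 0.146 CPM, and Klk13 at 1.55 CPM against 0.224 and 0.146 CPM. The mean of Klk5 over the Cre cTEC libraries was 0.696 CPM. The glandular sum was 9.71 CPM against 3.13 and 7.90 CPM in libraries 10 and 12.

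With all libraries the log2 values were 6.05 for Klk10 (SE 1.52, adjusted p = 0.0147) and 4.43 for Klk6 (SE 1.29, adjusted p = 0.0363), and neither separated the groups. Without library 11 they were at -0.54 (adjusted p = 0.674) and -0.74 (adjusted p = 0.518), and both calls were also lost with limma voom and without library 7, 8 or 9. Klk7 did not pass (2.57, SE 0.93, adjusted p = 0.0997). It passed without library 10 (3.20, adjusted p = 0.00773), without library 12 (adjusted p = 0.0221) and with no filter on low counts (adjusted p = 5.24e-18). Its value was -0.82 without library 11 (adjusted p = 0.249) and -0.14 with limma voom. The kallikrein that fell, Klk1b26, went from 1.21, 1.34 and 2.57 CPM to 0.112, 0.972 and 0.292 CPM (-2.12, SE 0.63, adjusted p = 0.0403). It no longer passed when library 7, 8, 9, 10 or 12 was left out (highest adjusted p 0.228). Without library 11 the comparison gave 1 member higher and 15 lower of 64 tested, where 13.1% of all genes passed in either direction.

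**Figure D3:**
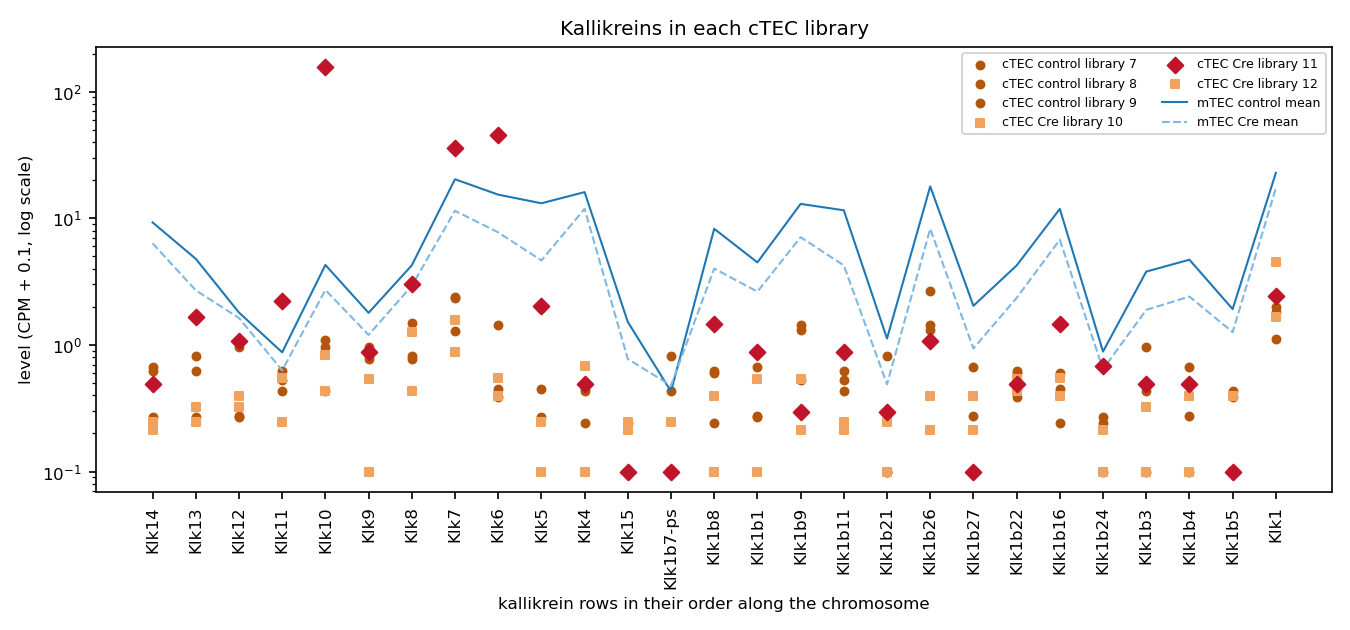
Level of each kallikrein row (x axis, in chromosomal order) in each cTEC library, as CPM plus 0.1 on a log axis, with the mTEC group means as lines. In library 11 (diamonds) Klk10, Klk7 and Klk6 stand at 156, 35.8 and 45.5 CPM, above the mTEC means, while the other cTEC points lie below them for these genes.

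The genotype comparison in mTEC asks the same of the medulla. Kallikrein values in Cre mTEC were lower as a group, but few passed singly. All 22 tested kallikreins had log2 fold changes below 0 (median -0.84, against 0.01 over all genes), and in 14 (63.6%) every Cre library lay below every control, against 12.8% of all genes. One of them, Klk1b11, passed. Among all 61 members 4 fell, 2 rose and 55 did not pass, where 1.49% of all genes fell and 0.585% rose. The 22 values come from the same libraries and are not independent of each other. Rows with few reads, such as Klk1b27 (means of 1.94 CPM in control and 0.837 in Cre mTEC), could enter the test through control mTEC alone. This favours values below 0, so the counts of 22 and 14 are partly set by the low-count filter. The summed kallikrein level given above also takes in the rows that were not tested. Sums of most marker lists overlapped between these groups. Thymocyte markers, for example, were at 145 to 191 CPM in control and 152.5 to 207 in Cre mTEC. The sums for mTEC, cTEC and fibroblast markers differed without overlap. They were 7721 to 8055 CPM in control and 6570 to 7681 in Cre mTEC for mTEC markers, 804 to 851 and 546 to 675 for cTEC markers, and 96.4 to 108 and 69.2 to 94.0 for fibroblast markers. Of 8 cTEC markers Ccl25 alone fell (-1.26, SE 0.24, adjusted p = 0.00862), and none of 7 tested mTEC markers passed. The part of these differences in the kallikrein values was not tested.

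Klk1b11 was at 10.4, 11.8 and 12.2 CPM in control mTEC and 4.72, 2.56 and 5.17 CPM in Cre mTEC (-1.46, SE 0.30, adjusted p = 0.0158). Klk1b26, an epidermal growth factor binding protein, was at 18.1, 17.8 and 17.2 against 8.98, 4.37 and 11.15 CPM (-1.11, SE 0.29, adjusted p = 0.0507). Both groups stood apart, although only Klk1b11 was past the threshold. The skin protease Klk5 had the lowest value of any member, with 12.0, 11.6 and 15.6 CPM against 5.32, 4.37 and 3.94 CPM (-1.52, SE 0.45, adjusted p = 0.0892). Klk7 was at 19.4, 20.1 and 21.2 against 10.6, 8.88 and 14.6 CPM (-0.82, SE 0.66, adjusted p = 0.642), and Klk6 at 14.7, 14.9 and 16.2 against 8.22, 7.23 and 7.48 CPM (-0.996, SE 0.84, adjusted p = 0.657). For Klk6, Klk7 and Klk10 the spread in this fit included library 11. In a fit of the 6 mTEC libraries alone Klk6 and Klk7 passed, and Klk10 did not.

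The sum of the 15 glandular rows went from 99.6, 108 and 115 CPM to 59.2, 43.1 and 75.5 CPM, without overlap. With near copies summed, this family fell in Cre mTEC (-0.86, SE 0.20, edgeR adjusted p = 0.0336), and in Cre cTEC it had -0.30 (SE 0.32, adjusted p = 0.726). The call in mTEC, by alternatives chosen after seeing the data, was lost with DESeq2 (adjusted p = 0.174) and without library 1, 2, 3, 4 or 5 (up to 0.229). It held without library 6 and with limma voom (adjusted p = 0.000178).

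Serpinb5 fell in mTEC as well, from 57.4, 58.3 and 61.03 CPM to 35.3, 37.5 and 32.0 CPM (-0.76, SE 0.11, adjusted p = 0.00141), and was the only member whose mTEC call held under every alternative run. Serpinb12 fell from 56.0, 53.7 and 51.8 CPM to 24.8, 24.1 and 41.6 CPM (-0.83, SE 0.17, adjusted p = 0.0158). Serpinb2 fell from 117, 122 and 136 CPM to 54.2, 53.5 and 94.8 CPM (-0.89, SE 0.22, adjusted p = 0.0419). Serpinb2 and Serpinb5 were the 2 members that fell in both cell types. Serpini1, an inhibitor of tissue plasminogen activator in neurons, rose from 33.7, 34.2 and 32.9 CPM to 54.2, 55.1 and 59.0 CPM (0.74, SE 0.14, adjusted p = 0.0116). Serpina3h rose from 28.02, 36.1 and 29.0 CPM to 53.1, 47.3 and 47.3 CPM (0.67, SE 0.14, adjusted p = 0.0173), with 24.4% of its windows found in another gene. The sum of all 14 Serpina3 rows did not pass in mTEC (0.13, SE 0.12, edgeR adjusted p = 0.712).

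These mTEC calls were sensitive to single libraries. Without library 1, 3 or 5 only 1 member passed, without library 4 there were 2, without library 2 there were 3, and without library 6 there were 9. Leaving out library 1, 2, 3, 4 or 5 ended the calls of Serpinb12 (highest adjusted p 0.125) and Serpinb2 (0.255), and DESeq2 did not call Serpinb2 either. Klk1b11 did not pass when library 1, 2, 3 or 5 was left out (0.119), nor did Serpini1 (0.0726) and Serpina3h (0.124) when library 1, 3, 4 or 5 was. Other settings called more members, 19 with limma voom (16 lower) and 17 in a fit of the mTEC libraries alone (14 lower).

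**Figure D4:**
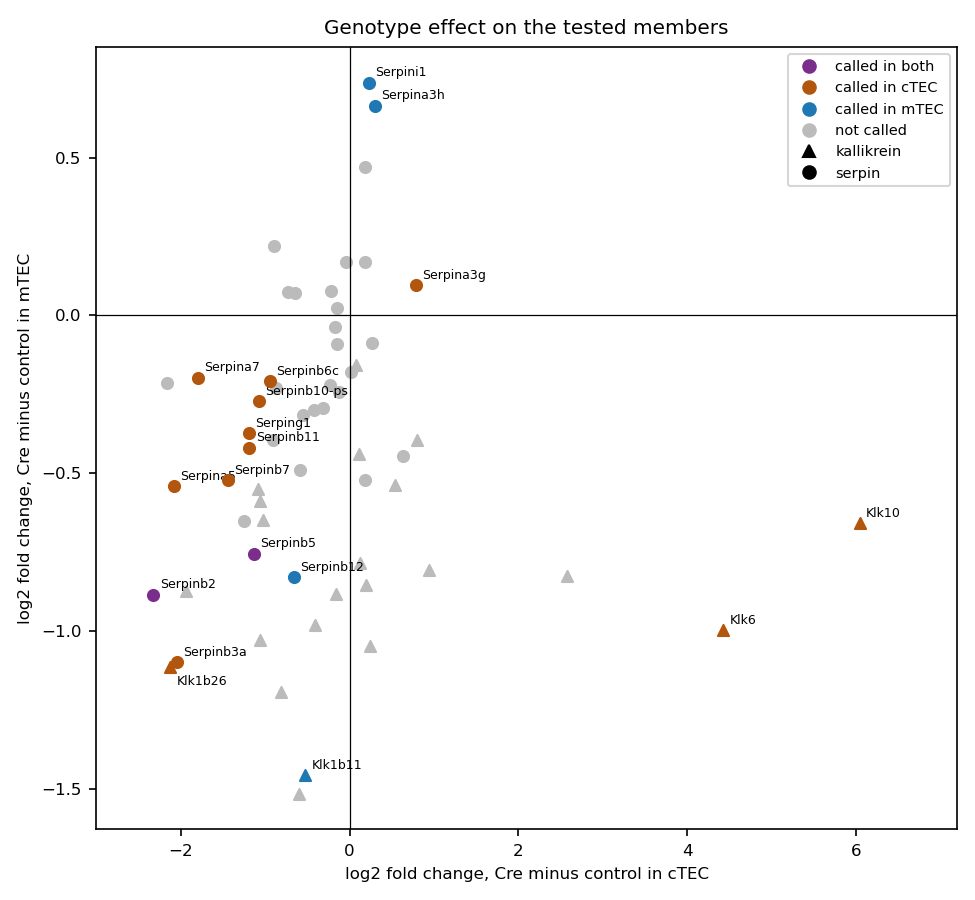
Log2 fold change of Cre over control in cTEC (x axis) and mTEC (y axis) for the 61 tested members, with kallikreins as triangles, serpins as circles and colour for the comparison in which a member passed. All 22 triangles lie below 0 on the mTEC axis, Klk10 and Klk6 lie far right at 6.05 and 4.43, and Serpinb2 and Serpinb5 passed in both comparisons.

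The difference of the genotype effects, cTEC minus mTEC, was tested for each member. Serpina7 alone passed (-1.60, SE 0.44, edgeR adjusted p = 0.0493), and 15 members had an unadjusted p under 0.05. Over all genes 1.08% passed as lower and 2.92% as higher. Serpina7 was at 29.3, 33.0 and 36.6 CPM in control mTEC and 26.8, 20.2 and 38.9 CPM in Cre mTEC, which overlap, while its cTEC groups did not. The call was lost with limma voom (adjusted p = 0.257), with DESeq2's size factors (0.059) and when any library but 5 or 12 was left out. Values for Serping1 (-0.82, adjusted p = 0.0598), Serpinb2 (-1.44, adjusted p = 0.0708), Serpina3g (0.69, adjusted p = 0.0726) and Klk6 (5.43, adjusted p = 0.0595) did not pass. These results depended on the setting. Serping1 passed with DESeq2, limma voom, no filter on low counts and without library 6 or 11, and Serpina3g with the first 3 of these and without library 4. Serpinb2 passed with no filter and without library 11. Klk6 passed with no filter and without library 10 or 12, but without library 11 its value was 0.29 (adjusted p = 0.873). Without library 11 Klk10 was at 0.16 (adjusted p = 0.939) and Klk7 at 0.04 (adjusted p = 0.983).

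Clade B genes lie in 2 clusters, and the members that fell were not spread evenly over them. This grouping was made after the values were seen and is a description. On chromosome 1, with 12 members of which 10 were tested, 6 fell in Cre cTEC and 9 had values below 0, with a median of -1.10. In Cre mTEC 3 of the 10 fell and all 10 were below 0, with a median of -0.52. Of all genes 3.38% fell in cTEC and 1.49% in mTEC. On chromosome 13, with 16 members of which 7 were tested, Serpinb6c alone fell in cTEC and none passed in mTEC, with medians of -0.24 and -0.21. The genes that flank the chromosome 1 cluster did not pass in either cell type. In cTEC Bcl2 had 0.00 (SE 0.10), Kdsr 0.08 (SE 0.11) and Vps4b -0.09 (SE 0.10) on one side, and Cdh7 had 0.30 (SE 0.49) and Dsel -0.25 (SE 0.13) on the other.

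**Figure D5:**
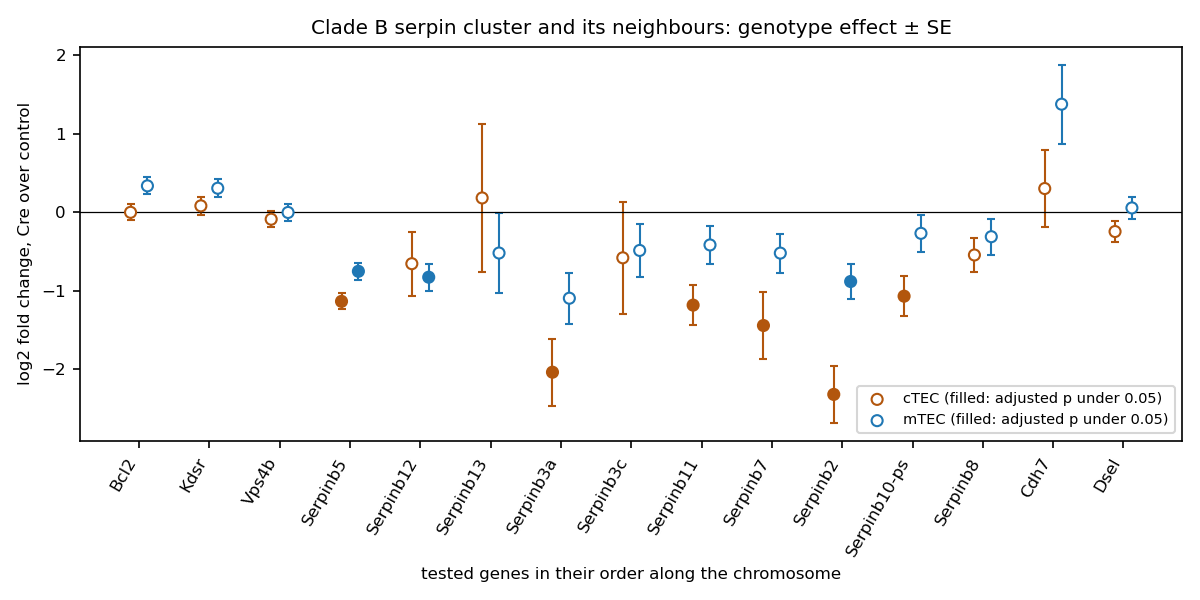
Log2 fold change of Cre over control with its SE for the tested genes of the chromosome 1 serpin cluster and their neighbours, in chromosomal order, in cTEC and mTEC, with filled points for an adjusted p under 0.05. Serpin values lie below 0 except Serpinb13 in cTEC, and those of the flanking genes Bcl2, Kdsr, Vps4b, Cdh7 and Dsel lie between -0.25 and 1.38.

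The promoters of Serpinb3a, Serpinb11 and Serpinb10-ps of this cluster, which fell in Cre cTEC, are not shown. Promoter sequences are shown for 3 other genes of the cluster that fell there, each with a match to TGANTCA, described below. They are RefSeq windows of the GRCm38.p6 build, from 250 bases before the annotated start to 50 after it, on the plus strand: Serpinb2 at chr1:107511173-107511472 (the first of its annotated starts), Serpinb5 at chr1:106860925-106861224 and Serpinb7 at chr1:107422439-107422738. Capitals mark matches, on either strand, to TGANTCA or to TATAAA, the TATA box. AGGTCA, the core sequence that LXR and other nuclear receptors bind, was also searched.
Serpinb2: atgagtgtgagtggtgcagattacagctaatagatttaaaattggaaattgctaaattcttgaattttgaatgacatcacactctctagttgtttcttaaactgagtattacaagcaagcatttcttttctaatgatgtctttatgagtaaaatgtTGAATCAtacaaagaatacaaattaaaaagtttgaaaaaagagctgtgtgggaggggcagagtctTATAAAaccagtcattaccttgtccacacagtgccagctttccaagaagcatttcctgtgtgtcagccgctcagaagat
Serpinb5: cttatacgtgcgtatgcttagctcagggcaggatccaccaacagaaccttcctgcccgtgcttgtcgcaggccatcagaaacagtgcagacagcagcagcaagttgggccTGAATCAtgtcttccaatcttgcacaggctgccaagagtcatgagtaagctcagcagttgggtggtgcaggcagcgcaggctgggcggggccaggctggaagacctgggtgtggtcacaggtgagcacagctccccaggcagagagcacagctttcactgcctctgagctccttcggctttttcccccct
Serpinb7: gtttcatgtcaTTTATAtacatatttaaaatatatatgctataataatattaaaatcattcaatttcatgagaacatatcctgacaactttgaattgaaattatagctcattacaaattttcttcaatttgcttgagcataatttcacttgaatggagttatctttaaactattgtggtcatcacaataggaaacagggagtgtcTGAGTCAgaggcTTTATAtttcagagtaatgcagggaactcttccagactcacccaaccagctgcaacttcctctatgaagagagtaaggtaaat

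TGANTCA covers the AP-1 consensus, whose central base is C or G, but also other letters at that base. Of the 3 genes Serpinb7 has G there, and Serpinb2 and Serpinb5 have A. TGANTCA begins 94 bases before the start in Serpinb2, 140 before it in Serpinb5 and 45 before it in Serpinb7. It occurred in 7 of 11 chromosome 1 members with a promoter in the table (Serpinb5, Serpinb12, Serpinb11, Serpinb7, Serpinb2, Serpinb10-ps and Serpinb8). Serpinb3a, which fell in Cre cTEC, had no match in its window. It occurred in 0 of 14 clade B members of chromosome 13 and in 0 of 26 kallikreins. Of all 32851 promoters 7.81% held it, and of the 89 promoters of members 13.5%. AGGTCA was in 16.3% of all promoters and 33.7% of member promoters, among them 11 kallikreins, all Klk1 or Klk1b genes with closely related sequences. The LXR element, 2 copies of AGGTCA in the same direction with 4 bases between them, was found in none of the 89 and in 0.0152% of all promoters. TATAAA was in 13.6% of all and 21.3% of member promoters. A match describes letters in a window and not a site that is bound.

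Genes that work with kallikreins and serpins were counted from lists. Of 14 tested genes that activate, inhibit or are cleaved by kallikreins, 11 were higher in control mTEC than in control cTEC and 1, the activating protease Prss8, was lower (-1.34). Over all tested genes 29.3% were higher and 30% lower. In Cre mTEC Spink5 alone of the 14 passed. Spink5 encodes the inhibitor of the skin kallikreins, and it fell from 67.6, 60.9 and 79.2 CPM to 26.8, 20.8 and 32.5 CPM, with no overlap (-1.37, SE 0.28, adjusted p = 0.0132). In Cre cTEC Dsg1a, a desmosomal cadherin, rose (1.02, SE 0.27), and Prss8 (-0.43, SE 0.13) and F2rl1, a receptor that kallikreins can activate, fell (-0.82, SE 0.19). For this list and those below, 5.62% of all tested genes rose and 3.38% fell in Cre cTEC. In Cre mTEC 0.585% rose and 1.49% fell.

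Of 8 genes of the plasminogen system, Plat, the tissue plasminogen activator, rose in Cre cTEC (0.73, SE 0.22, adjusted p = 0.0461) and none passed in mTEC. Of 13 tested serine proteases Prss16, the thymus-specific protease of cTEC, rose in Cre cTEC (0.94, SE 0.25, adjusted p = 0.0191). Its groups overlapped, at 1773, 2271 and 1758 CPM in control cTEC and 5481, 1998 and 3683 CPM in Cre cTEC. Of 8 cysteine proteases Ctsb, the lysosomal cathepsin B, fell there (-0.37, SE 0.11, adjusted p = 0.0339). Among 7 collagen genes, whose products Serpinh1 folds, Col3a1, Col4a1 and Col4a2 rose in Cre cTEC by 0.82 (SE 0.21), 0.44 (SE 0.13) and 0.48 (SE 0.13), and Col1a1 fell in Cre mTEC (-0.81, SE 0.20). Control and Cre libraries of cTEC overlapped for Plat and Col3a1, and for F2rl1 named above. The values of Serpinh1 itself were -0.05 (SE 0.13) in cTEC and 0.17 (SE 0.13) in mTEC, and neither passed.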

How the data were processed

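For 12 libraries the deposited values are unnormalized counts of reads, 1 row per gene symbol. The tools were STAR, HTSeq and edgeR and the build mm9, per the submitters' processing notes. Versions, annotation and the handling of reads that match several genes: not given in the sources used here. Per the labels' protocols, RNA was amplified with a SMARTer low-input kit, which does not mark strand, so antisense reads cannot be told apart.

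Counts were fitted with edgeR 4.0.16 (R 4.3.3): TMM scaling, filterByExpr by group, 1 model of 4 group means (8 residual degrees of freedom) and two-sided quasi-likelihood tests with a threshold of 0.05 after Benjamini-Hochberg adjustment over 17268 genes. CPM were computed from the counts with TMM-scaled totals. Samples were grouped by the labels' cell type and genotype. Counting limits precision most below about 1 CPM. No molecular identifiers were counted, so reads may be copies of 1 molecule.

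Members and lists were chosen with earlier results of these data known. Named were the 18 members past the threshold in a genotype comparison or in their difference, up to 8 per direction with the largest cell type difference (at least 5 CPM, no overlap), and the 2 most abundant of each group, 37 in all, some of which are not reported here. Klk5, Klk7, Klk8, Klk9, Klk11 and Klk13 in library 11, Klk5 and Klk6 in mTEC and the neighbouring genes were named after their values were seen. Transcript lengths and shared 50-base windows came from GENCODE M21 (94 of 94 members matched) and promoters from RefSeq GRCm38.p6 (78 of 94 members, 1 through a synonym). That build differs from the authors', so none of the counts were tied to its coordinates.

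Alternatives were DESeq2 1.42.0, limma 3.58.1 voom with quality weights, DESeq2's size factors in edgeR, no filter, only the libraries compared, near-identical families summed and each library left out. The fit was tested on simulated counts with known changes.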

Additional observations from a re-analysis of the deposited data

Results flagged for a closer look

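Serpina7, the thyroxine-binding globulin, stood out among the members because its response to genotype in cTEC differed from that in mTEC when the difference itself was tested, with a log2 value of -1.6 for cTEC minus mTEC (SE 0.44, edgeR adjusted p = 0.0493). Its level in Cre cTEC was below control in 3 of 3 libraries, whereas in mTEC the groups overlapped. Across the alternatives the value ranged from -1.89 to -1.07, with adjusted p from 0.0046 to 0.257.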

How the results depend on the processing

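No paired analysis was possible because no library number occurs in more than 1 group. With near-identical families summed, 40 rows were tested and 34 passed between the cell types in controls and 28 in Cre, in place of 54 and 48 of 61. For genotype in cTEC, 14 members passed, 9 in a fit of the cTEC libraries alone (32 tested) and 8 to 16 with a library left out (9 without library 7, 8 without library 8). For genotype in mTEC, 6 members passed, 19 with limma voom, 14 with no filter, 17 in a fit of the mTEC libraries alone and 1 to 9 with a library left out. For the difference of effects, 1 member passed, 3 with DESeq2, 5 with limma voom, 9 with no filter and 0 with DESeq2's size factors in edgeR, where 11 had an unadjusted p under 0.05. With a library left out it was 0 to 4 (0 without library 1, 2, 3, 7, 8 or 9, 3 without library 10 or 11 and 4 without library 12), and 11 to 14 members had an unadjusted p under 0.05 where none passed in edgeR. Between cell types, leaving out a library gave 49 to 52 in controls and 44 to 59 in Cre.

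Directions that involved a call turned for 3 kallikreins. For mTEC minus cTEC in Cre, Klk10 had 1.00 with limma voom and 2.35 without library 11, Klk6 had 3.76 and 4.30, and Klk7 had 2.60 and 3.40. For Cre minus control in cTEC, Klk10 had -0.54 and Klk6 -0.74 without library 11, and Klk6 had -0.027 with limma voom. With a library left out, the ranges were -4.86 to 2.35 (Klk10), -1.52 to 4.30 (Klk6) and -0.64 to 3.40 (Klk7) for mTEC minus cTEC in Cre, and -0.54 to 6.65 (Klk10) and -0.74 to 5.45 (Klk6) for Cre minus control in cTEC. Klk7 for Cre minus control in cTEC, 2.57 and not called, ranged from -0.82 to 3.20. The cause was not tested. Among single-gene values with a library left out, 1148 kept direction and side of the threshold, 45 changed sign with no call before or after, 83 lost a call, 21 gained one and 5 turned with a call involved. Under the other alternatives these numbers were 852, 21, 16, 49 and 4.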
